A study of Mus musculus with 11 samples.

Results

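The complement genes described here are 9 genes of the classical route and its receptors, out of 32287 genes counted: C1qa, C1qb, C1qc, C4b, C3, C3ar1, C5ar1, Itgam and Serping1. They were picked by gene symbol, not by their values, and their levels were taken in 7 cell types, namely microglia, macrophages, neutrophils, endothelial cells, vascular smooth muscle cells, pericytes and fibroblasts. Cells of the brain vasculature were captured with antibodies against CD31, an endothelial surface protein, and sequenced in droplets, with 1 library per mouse. The CADASIL mice (R182C-TgN3, 6 mice) carried the human NOTCH3 gene with the variant R182C, and the control mice (WT-TgN3, 5 mice) carried the same human gene without it at a level like that of the mouse's own Notch3, so every mouse carried human NOTCH3. All mice were untreated, of both sexes, and 6 or 9 months old, with 3 CADASIL mice at each age and 3 control mice at 6 and 2 at 9 months. They were prepared in 4 batches, each holding mice of 1 age, so that age and batch cannot be told apart. Batch 2 held 1 CADASIL mouse, R182C-TgN3 3, and no control mouse, so genotype and batch cannot be told apart for it.

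Complement is a cascade of plasma and tissue proteins. The classical route starts when C1q, built from the chains encoded by C1qa, C1qb and C1qc, binds a target and its attached proteases cut C4 and C2, whose fragments join into the enzyme that cuts C3. Fragments of C3 coat the target and are read by receptors such as CR3, whose alpha chain is the product of Itgam, while the small fragments of C3 and C5 signal through the receptors encoded by C3ar1 and C5ar1. Serping1 encodes the C1 inhibitor, which stops the C1 proteases. In brain, C1q and CR3 are known for their part in the removal of synapses by microglia.

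On mm10 the 3 C1q genes lie side by side on the minus strand of chromosome 4, with C1qb at chr4:136880129-136886187, C1qc at chr4:136889804-136893065 and C1qa at chr4:136895917-136898803, a span of 18675 bp. C3 lies at chr17:57203970-57228136 and C4b at chr17:34728380-34743882, both on the minus strand. C3ar1 lies at chr6:122847138-122856161 and C5ar1 at chr7:16246743-16259540, both on the minus strand, Itgam at chr7:128062640-128118491 on the plus strand and Serping1 at chr2:84765387-84775444 on the minus strand. C4b has a close copy, C4a, at chr17:34809092-34823464 on the minus strand, and reads that fit both may have been assigned to either or dropped, so the C4b values are uncertain to that degree.

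The bases before the start sites of C1qb, Itgam and C3 are shown because C1qb and Itgam were read at high levels in microglia and C3 was almost not read there. Each is the 250 bases upstream of the RefSeq start on GRCm38.p6, read 5′ to 3′ along the gene's strand. Capitals mark the letters GAGGAA or AGGAAGT on either strand, purine-rich words of the kind bound by PU.1, a transcription factor of myeloid cells. The windows are chr4:136886201-136886450 on the minus strand for C1qb, chr7:128062390-128062639 on the plus strand for Itgam, and chr17:57228137-57228386 on the minus strand for C3.
C1qb: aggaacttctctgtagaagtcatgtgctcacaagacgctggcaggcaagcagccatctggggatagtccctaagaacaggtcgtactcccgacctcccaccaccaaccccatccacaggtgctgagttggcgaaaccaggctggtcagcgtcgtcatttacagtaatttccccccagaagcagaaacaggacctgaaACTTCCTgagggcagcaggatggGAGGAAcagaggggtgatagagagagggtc
Itgam: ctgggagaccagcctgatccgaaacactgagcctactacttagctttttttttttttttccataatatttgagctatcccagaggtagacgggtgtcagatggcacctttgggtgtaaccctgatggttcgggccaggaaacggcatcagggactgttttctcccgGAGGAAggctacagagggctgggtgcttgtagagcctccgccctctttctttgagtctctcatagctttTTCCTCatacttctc
C3: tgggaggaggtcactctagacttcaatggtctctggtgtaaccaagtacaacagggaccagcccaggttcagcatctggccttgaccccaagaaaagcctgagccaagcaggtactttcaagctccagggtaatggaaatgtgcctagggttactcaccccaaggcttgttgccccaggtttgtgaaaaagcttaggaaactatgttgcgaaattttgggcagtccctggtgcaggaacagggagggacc
In C1qb, GAGGAA began 30 bases before the start on the gene's strand and AGGAAGT 53 bases before it on the other strand. In Itgam, GAGGAA was found 84 bases before the start on the gene's strand and 15 bases before it on the other. The C3 window held neither word, and neither did that of C3ar1, a gene read at a high level in microglia. Windows were matched for 6 of the 9 genes, and 4 of the 6 held either word (C1qb, C1qc, C5ar1 and Itgam) against 27.27% of the 32851 mouse promoters of that length. The RefSeq start of C5ar1 lay 202 bp inside the gene span given above, which takes in both of its matches. That of C1qc lay 151 bp inside its span, with its matches outside the span. GAGGAA was in 23.25% of all promoters and AGGAAGT in 7.686%. A match of letters is a description of the sequence and was not tested for binding.

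The libraries held 66658 barcodes and from 17550806 to 64215050 unique molecular identifiers (UMIs, each counting 1 captured transcript), and 61625 barcodes were kept, those with 500 genes or more of which mitochondrial UMIs made up 10% or less. Cells were assigned to a type by marker genes that include none of the 9, which gave 14281 microglia, 39458 endothelial cells, 1999 smooth muscle cells, 674 pericytes, 165 macrophages, 112 fibroblasts and 5 neutrophils, while 2152 barcodes with the markers of several types were set aside as mixed. The gate picks cells by its markers, so high marker levels in their own type are no check of the types. Even so, endothelial cells and fibroblasts each led in only 7 of their 8 markers. The endothelial marker Emcn was at 652 CPM in fibroblasts and 608 CPM in endothelial cells. The fibroblast marker Slc6a13 was at 61.3 CPM in pericytes and 60.3 CPM in fibroblasts. Genes outside the marker lists that led each type included Sall3 in microglia, Cd209f in macrophages and Cemip in fibroblasts. The leading genes of the 5 neutrophils were Camp, Elane and Wfdc21, genes of immature granulocytes, and no test was made on them. Among kept barcodes, 666 sequences occurred in at least 2 libraries, most often between R182C-TgN3 4 and R182C-TgN3 5 with 172, and these held 227 microglia, 1218 endothelial cells and no macrophage. Levels below are UMIs per 1000000 UMIs of the cell type in a mouse (CPM). Each transcript was counted once by a tag at its 3′ end, so CPM was not divided by gene length. A type entered for a mouse with at least 10 cells of it, which left 8 mice for macrophages and 6 for fibroblasts.

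In 2 libraries part of the microglia stood apart in the C1q genes. In WT-TgN3 2, 253 of 771 microglia (32.8%, exact 95% interval 29.5% to 36.3%) held fewer than 20 C1q UMIs per 10000 UMIs, a limit set after the values were seen. In R182C-TgN3 5, 55 of 566 did (9.72%), and in the other 9 mice 0.531% to 3.98% did. These cells of WT-TgN3 2 held C1qa at 290 against 4949 CPM in its other microglia, C1qb at 357 against 4083 CPM and C1qc at 108 against 3193 CPM. The receptors differed less, with C3ar1 at 350 against 470 CPM and C5ar1 at 198 against 263 CPM, and Itgam was at 497 against 401 CPM. The cells still held the microglial marker P2ry12, at 822 against 1330 CPM. Their RNA differed widely beyond complement: ribosomal protein genes took 0.484% against 4.93% of UMIs, Cst3 was at 794 against 22260 CPM, and Lrmda was at 3663 against 1228 CPM. Their median depth was 2449 against 5134 UMIs. Only 4 of the 253 had a barcode sequence found in another library. The methods of the study leave a control animal out of the microglial analysis for its polarized microglia, and the sources used here do not say which, so all mice were kept. Without these cells the 3 C1q genes of WT-TgN3 2 summed to 12225 CPM, the highest of the control mice, against 9645.5 CPM with them, the lowest. In R182C-TgN3 5 the sums were 11227 against 10544 CPM. The results below were recomputed without each mouse, which also takes out its other microglia. The part of these cells alone in the genotype fits was not tested.

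**Figure D1:**
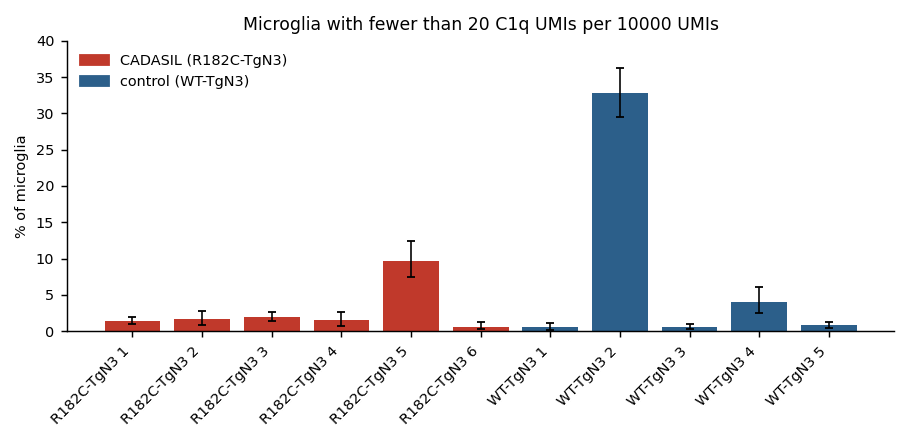
Share of microglia with fewer than 20 C1q UMIs per 10000 UMIs in each mouse, in percent on the y axis, with exact 95% intervals that cover counting error only. WT-TgN3 2 stands at 32.8% and R182C-TgN3 5 at 9.72%, above the other 9 mice at 0.531% to 3.98%.

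The 3 C1q genes were read in microglia and macrophages at like levels and at far lower levels in the other types. Together they made up 1.11% of all UMIs of microglia, 11134 ± 1227 CPM (SD, n = 11 mice). Microglia held C1qa at 4392 ± 468 CPM, C1qb at 3672 ± 431 CPM and C1qc at 3071 ± 364 CPM (SD, n = 11). Macrophages held them at 4276 ± 613, 3103 ± 512 and 2848 ± 352 CPM in the same order (SD, n = 8). In the order of the types, microglia and macrophages did not differ in any of the 3 beyond the spread between mice (exact sign-flip permutation tests within mice, 2-sided, adjusted p = 0.681 for C1qa, 0.132 for C1qb and 0.320 for C1qc). The ratio of C1qb to C1qa was 0.836 ± 0.037 in microglia (n = 11) and 0.725 ± 0.060 in macrophages (n = 8), that of C1qc to C1qa 0.699 ± 0.039 and 0.669 ± 0.053, and that of C1qc to C1qb 0.837 ± 0.041 and 0.930 ± 0.118, and the ratios were not tested. Macrophages stood above pericytes, the next type in the order, in 8 of 8 mice for each C1q gene, for example 4276 against 55.8 CPM of C1qa (adjusted p = 0.0293, exact permutation test). Microglia were not tested against pericytes, and their lowest mouse held 3839 CPM of C1qa against 171 CPM in the highest mouse of pericytes.

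Endothelial cells held C1qa at 42.3 ± 23.7 CPM, pericytes at 55.8 ± 48.1 CPM and smooth muscle cells at 26.1 ± 21.9 CPM. The 6 genes read in microglia (C1qa, C1qb, C1qc, C3ar1, C5ar1 and Itgam) were between 0.898% and 1.13% of their microglial level in endothelial cells. There 6 other microglial genes (Ctss, Csf1r, Trem2, Tyrobp, Laptm5 and Fcer1g) lay between 1.01% and 2.48%, with Laptm5 the highest. In smooth muscle cells these ranges were 0.550% to 0.764% and 0.662% to 1.08%, and in pericytes 1.15% to 2.44% and 1.48% to 1.75%. Of the 6 other genes, Tyrobp and Fcer1g were in macrophages at 107% and 124% of their microglial level. After every cell was thinned to 2000 UMIs, C1qa was seen in 7.53 ± 4.49% of endothelial cells and 7.88 ± 5.23% of B cells, a type that should lack it, against 97.5 ± 5.05% of microglia. Median depth before thinning was 5023 UMIs in microglia and 4862 in endothelial cells.

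C4b, which encodes the C4 protein cut by the C1 proteases, was highest in macrophages at 132 ± 36.4 CPM (SD, n = 8). The 4 CADASIL mice with enough macrophages held 197, 150, 88.1 and 110 CPM, and the 4 control mice 131, 125, 163 and 95.6 CPM, so the groups overlapped. Fibroblasts held 11.4 ± 14.7 CPM (n = 6), endothelial cells 3.48 ± 2.10 CPM and microglia 0.981 ± 0.692 CPM (n = 11). Only 3 mice had enough macrophages and fibroblasts, so that the exact test of their order could not go below 0.25. C4b was found in 45 of 165 macrophages with 101 UMIs, and endothelial cells, being the most numerous, held 1010 of all 1403 C4b UMIs (72.0%).

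C3, the central protein of the cascade, was scarcely read in these types. All kept cells held 503 C3 UMIs. Fibroblasts held 7.81 ± 12.6 CPM (n = 6), resting on 11 UMIs, and 4 of the 6 mice were at 0. Over all mice, those with fewer than 10 fibroblasts included, 23 UMIs were held by 7 of 112 cells. Microglia held 1.02 ± 0.53 CPM (n = 11), with 69 UMIs in 46 of 14281 cells, against 0.436 ± 0.858 CPM in endothelial cells, higher in 10 of 11 mice (adjusted p = 0.0293, exact permutation test). Pericytes held 0 UMIs in 674 cells, which allows up to 1.38 CPM (upper end of the exact 95% interval). Other cells in the libraries held more for their number: 32 ependymal cells held 53 UMIs, 116 CPM with an exact 95% interval of 86.7 to 151 CPM, and 53 monocytes held 35 UMIs, 76.3 CPM (53.1 to 106). Of the 5 neutrophils 1 held all 12 C3 UMIs of that type. These intervals cover counting error only.

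Of the receptors, C5ar1 was higher in macrophages and the integrin chain Itgam in microglia, and C3ar1 did not differ beyond the spread. C3ar1, the receptor of the C3a fragment, was at 462 ± 33.5 CPM in microglia and 501 ± 214 CPM in macrophages (adjusted p = 0.914, exact permutation test). C5ar1, the receptor of C5a, was at 311 ± 33.3 CPM in microglia and at 672 ± 224 CPM in macrophages, higher in macrophages in 8 of 8 mice (adjusted p = 0.0293, exact permutation test). Itgam was at 440 ± 29.1 CPM in microglia and 119 ± 54.1 CPM in macrophages, higher in microglia in 8 of 8 mice (adjusted p = 0.0293, exact permutation test). After thinning, C3ar1 was seen in 51.9% of microglia, C5ar1 in 35.4%, both receptors in 19.4% and Itgam in 56.4%. Without thinning, C3ar1 was seen in 71.3%, C5ar1 in 49.9% and Itgam in 80.3%. Macrophages after thinning showed C3ar1 in 48.9%, C5ar1 in 54.4% and Itgam in 20.3% of cells. In thinned endothelial cells C3ar1 was seen in 0.819%, C5ar1 in 0.451% and Itgam in 1.00% of cells.

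Serping1 had the opposite place, in the cells of the vessel wall. Fibroblasts held 650 ± 119 CPM (SD, n = 6), smooth muscle cells 128 ± 18.3 CPM and pericytes 107 ± 51.2 CPM (n = 11). Fibroblasts were above smooth muscle cells in 6 of 6 mice (exact permutation p = 0.0312, the smallest that 6 mice can give, adjusted p = 0.0938). Smooth muscle cells and pericytes did not differ beyond the spread (adjusted p = 0.185, exact permutation test), and pericytes were above macrophages in 8 of 8 mice (adjusted p = 0.0293, exact permutation test). Endothelial cells held 1.29 ± 1.00 CPM and microglia 0.225 ± 0.174 CPM. After thinning, Serping1 was seen in 83.9% of fibroblasts, 21.0% of smooth muscle cells and 17.4% of pericytes, against 0.164% of endothelial cells. Of the 45 neighbouring pairs of types over the 9 genes, 12 passed an adjusted p of 0.05, and of the 9 pairs at the top of each order 2 did, those of C5ar1 and Itgam. The order was tested for these 9 genes alone, so the share over all genes is not known.

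**Figure D2:**
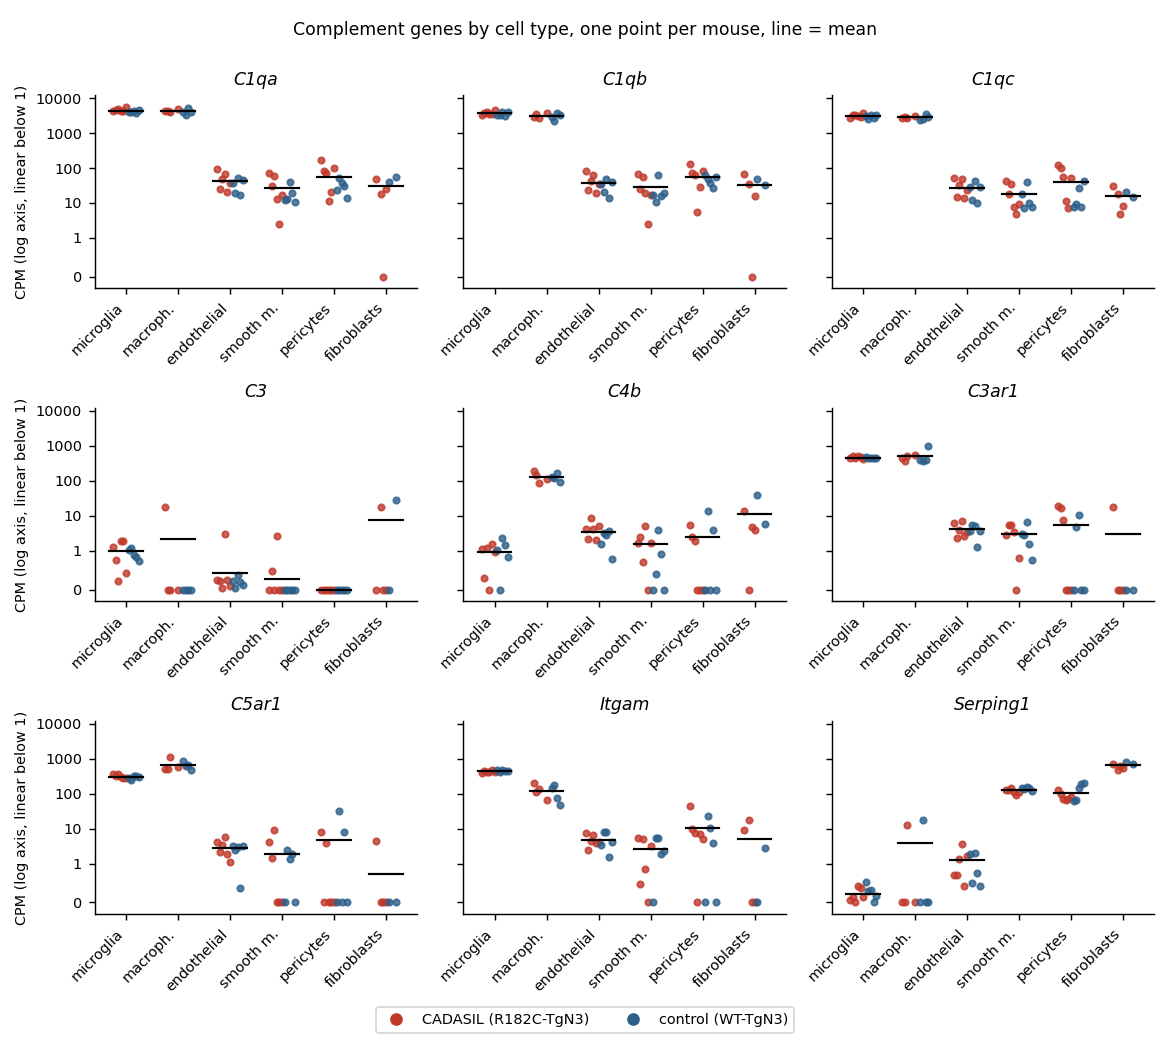
Level of each of the 9 genes in each cell type, in CPM on a log axis that is linear below 1 CPM, with a point for each mouse, coloured by genotype, and a line at the mean. The C1q genes, C3ar1, C5ar1 and Itgam stand high in microglia and macrophages, C4b in macrophages, and Serping1 in fibroblasts, smooth muscle cells and pericytes.

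The genes whose levels were most like those of a member over the 58 pairs of type and mouse were named as a description, and points of 1 mouse share a library. They were Spi1 (Pearson r = 0.970) and Fcgr3 (0.968) for C1qa, Hpgds (0.958) and Fcgr3 (0.957) for C1qb, and Fcgr1 (0.980) and Il10ra (0.972) for C1qc. Evi2a (0.971) and Tlr7 (0.970) were most like C3ar1, Alox5ap (0.966) and Tlr7 (0.966) most like C5ar1, and Ctss (0.950) was most like Itgam. For C4b these were Rgs18 (0.865) and Cd209f (0.857), for Serping1 Nr2f1 (0.970) and Pcolce (0.965), and for C3, at its low level, Dpt (0.685) and Stpg2 (0.637).

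Microglia were compared with macrophages of the same mouse in a model of all genes with the mouse as a block (edgeR quasi-likelihood test, Benjamini-Hochberg adjustment, 8 mice). Of the 9 genes 7 were tested and 4 were called, where 29.4% of the 10756 genes tested were called. Higher in microglia were Itgam, by a log2 fold change of 1.96 (SE 0.20, adjusted p = 4.041e-21), and C1qb, by 0.43 (SE 0.14, adjusted p = 0.00650), where 18.8% of all genes were called higher. Lower in microglia were C4b, with a log2 fold change of -6.85 (SE 0.39, adjusted p = 6.79e-67), and C5ar1, with -0.90 (SE 0.16, adjusted p = 1.867e-07), where 10.6% were called lower. C1qc (0.28, adjusted p = 0.106), C1qa (0.22, adjusted p = 0.214) and C3ar1 (0.10, adjusted p = 0.727) did not pass. Over all genes the log2 fold change had a median of 0.17 in this scaling and -0.02 with DESeq2, and the split of calls moved from 2022 higher and 1136 lower to 1183 higher and 1429 lower. With DESeq2, C1qb was at 0.21 (adjusted p = 0.258) and was not called, while Itgam, C5ar1 and C4b were called in the same direction. The edgeR test with the size factors of DESeq2, an alternative added after the data were examined, gave C1qb 0.21 as well (adjusted p = 0.205) and called the same 3 genes, so the call of C1qb rested on the scaling. Without WT-TgN3 4, 6 of the 9 genes were called, with C1qa (adjusted p = 0.0434) and C1qc (adjusted p = 0.0217) added. The median over the 7 genes was 0.22.

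**Figure D3:**
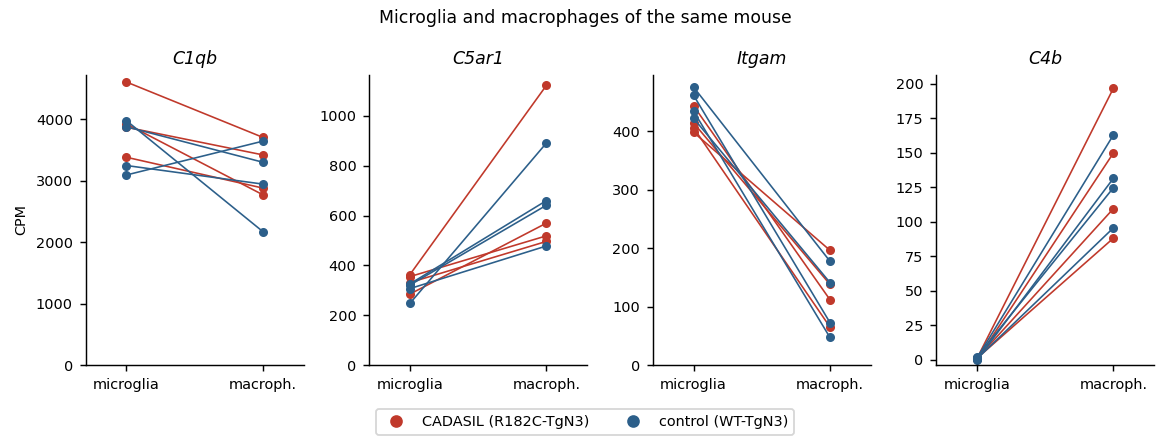
Level of C1qb, C5ar1, Itgam and C4b in microglia and macrophages of the same mouse, in CPM on a linear axis, with a line for each of the 8 mice, coloured by genotype. C4b and C5ar1 lie higher in macrophages and Itgam in microglia in 8 of 8 mice.

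The question of the study in these cells was what differs between CADASIL mice and control mice. In microglia, C1qa was at 4154, 4445 and 5397 CPM (lowest, median and highest) in the 6 CADASIL mice, and at 4061, 3901, 4285, 3839 and 4522 CPM in the 5 control mice. C1qb was at 3379, 3742 and 4601 CPM in CADASIL mice and at 3323, 3245, 3973, 3091 and 3874 CPM in control mice. C1qc was at 2720, 3172 and 3814 CPM in CADASIL mice and at 3024, 2500, 3240, 2771 and 3246 CPM in control mice. The groups overlapped in each C1q gene, with R182C-TgN3 6 the highest mouse in all 3. C3ar1 was at 413, 464 and 530 CPM in CADASIL mice and at 479, 443, 445, 456 and 446 CPM in control mice. C5ar1 was at 286, 318 and 364 CPM in CADASIL mice and at 290, 248, 322, 326 and 308 CPM in control mice. Itgam was at 398, 423 and 470 CPM in CADASIL mice and at 483, 422, 476, 462 and 435 CPM in control mice. In each receptor gene, too, the groups overlapped.

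In the fit across all genes (edgeR quasi-likelihood test), 6 of the 9 genes were tested in microglia and 0 were called, where 0% of the 11065 genes were called and 109 had an unadjusted p under 0.05. The log2 fold changes of CADASIL over control mice were 0.19 for C1qa (SE 0.12), 0.15 for C1qb (SE 0.13), 0.12 for C1qc (SE 0.13), 0.07 for C3ar1 (SE 0.10), 0.13 for C5ar1 (SE 0.11) and -0.07 for Itgam (SE 0.09), and each had an adjusted p of 1. DESeq2 also called 0 genes, with 76 at an unadjusted p under 0.05. Leaving out each mouse kept C1qa between 0.13 and 0.24, without a call, and without WT-TgN3 2 it was at 0.18. The median over the 6 genes was 0.13, against 0.00056 over all genes tested. C3, C4b and Serping1 did not pass the filter on low counts in microglia, and without it all 9 genes were tested and 0 were called. The share of thinned microglia with a UMI differed by genotype in 0 of the 9 genes (exact permutation tests, lowest adjusted p = 0.545, and 0 with an unadjusted p under 0.05), for example 98.7 ± 1.46% of cells in CADASIL mice and 96.1 ± 7.52% in control mice for C1qa. WT-TgN3 2 stood at 82.7%, and the other 4 control mice at 99.5 ± 0.517%. Thinning left out 15.1% of microglia of CADASIL mice and 13.3% of those of control mice.

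**Figure D4:**
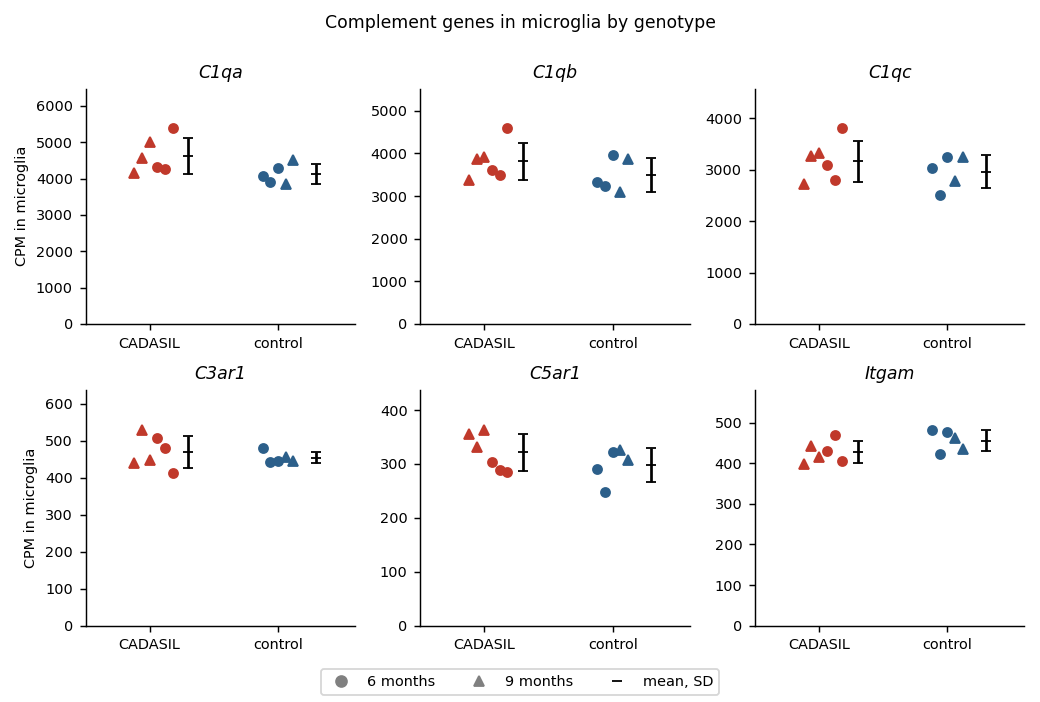
Level of 6 genes in microglia of each mouse, in CPM, by genotype, with circles for mice of 6 and triangles for mice of 9 months and the mean and SD of each group. The groups overlap in each gene, for example 4154 to 5397 CPM of C1qa in CADASIL mice and 3839 to 4522 CPM in control mice.

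In the other types, 0 of the tested genes were called between genotypes. In macrophages 7 were tested in 4 mice of each genotype (0% of 1432 genes called, 46 at an unadjusted p under 0.05, DESeq2 0 and 24), and in endothelial cells 8 were tested (0% of 13265 genes called, 178 at an unadjusted p under 0.05, DESeq2 0 and 171). In smooth muscle cells 4 were tested (0.0112% of 8939 genes called) and in pericytes 3 (0.0264% of 3785 genes called). C4b in endothelial cells was at 2.06, 4.24 and 8.45 CPM (lowest, median and highest) in CADASIL mice and at 1.52, 3.19, 2.88, 3.59 and 0.795 CPM in control mice. The groups overlapped, and the log2 fold change was 0.93 (SE 0.43, unadjusted p = 0.0523, adjusted p = 1 in edgeR). Serping1 in smooth muscle cells was at 93.3, 119 and 142 CPM in CADASIL mice and at 144, 134, 156, 143 and 117 CPM in control mice, with a log2 fold change of -0.17 (SE 0.12, adjusted p = 1.00 in edgeR). Serping1 in pericytes was at 68.0, 74.3 and 131 CPM in CADASIL mice and at 61.3, 65.7, 147, 191 and 197 CPM in control mice, with a log2 fold change of -0.55 (SE 0.28, unadjusted p = 0.0679, adjusted p = 1.00 in edgeR). Fibroblasts, with 4 CADASIL and 2 control mice, were not tested for genotype. Serping1 there was at 721, 484, 624 and 547 CPM in the CADASIL mice and at 791 and 732 CPM in the control mice.

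C1qa in the mural cells had the lowest unadjusted p of the 9 genes between genotypes, 0.0245 in smooth muscle cells (log2 fold change 1.07, SE 0.44) and 0.0153 in pericytes (1.27, SE 0.48), with an adjusted p of 1.00 in both (edgeR). Sums of other microglial genes in these cells are given beside it. In smooth muscle cells the 3 C1q genes summed to 9.82, 58.2 and 182.5 CPM (lowest, median and highest) in CADASIL mice and to 46.4, 30.7, 143, 45.2 and 37.6 CPM in control mice. The 6 other microglial genes summed to 29.5, 58.0 and 163 CPM in CADASIL mice and to 59.8, 52.9, 116, 42.7 and 48.9 CPM in control mice. R182C-TgN3 1, highest in both sums, was also highest in both in pericytes, at 428 and 425 CPM. The 9 markers of the microglial gate had another order, with R182C-TgN3 3 highest at 630 CPM in smooth muscle cells and 865 CPM in pericytes, against 333 and 664 CPM in R182C-TgN3 1. The part of microglial RNA in the C1qa values of mural cells was not tested. With no filter on low counts, C1qc in pericytes was called (log2 fold change 2.14, SE 0.45, adjusted p = 0.0209 in edgeR). It was at 7.0, 53.7 and 123 CPM in CADASIL mice and at 7.67, 9.39, 26.3, 7.79 and 42.2 CPM in control mice, which overlapped.

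Age, sex and the interaction of genotype with age were fitted in microglia, endothelial cells and smooth muscle cells, and 0 of the 9 genes were called in any of these fits. In microglia, 0.615% of genes were called for age, 0.0527% for sex and 0% for the interaction. In endothelial cells these shares were 0.732%, 0.103% and 0%, and in smooth muscle cells 0.245%, 0.0745% and 0%. C5ar1 in microglia differed by a log2 fold change of 0.23 at 9 against 6 months (SE 0.09, unadjusted p = 0.0236, adjusted p = 0.274 in edgeR). Serping1 in endothelial cells was at -1.15 (SE 0.49, unadjusted p = 0.0367, adjusted p = 0.268 in edgeR). The smallest unadjusted p of the interaction was that of C1qc in smooth muscle cells, with a log2 difference of 3.10 (SE 0.74, unadjusted p = 0.000529, adjusted p = 0.488 in edgeR), beside 2.38 for C1qa and 2.25 for C1qb. The 3 C1q genes summed there to 182.5, 73.7 and 149 CPM in CADASIL mice of 9 months and to 39.7, 9.82 and 42.7 CPM in those of 6 months. In control mice they summed to 45.2 and 37.6 CPM at 9 months and to 46.4, 30.7 and 143 CPM at 6 months. The 6 other microglial genes summed in the same order to 163, 63.5 and 145 CPM, to 40.5, 29.5 and 52.6 CPM, to 42.7 and 48.9 CPM, and to 59.8, 52.9 and 116 CPM, so both sums were high in the same mice.

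Within the endothelium, C4b was found mostly in venous cells. Zones were assigned by at least 3 zone markers, a comparison added after the data were examined, and gave 3782 venous, 4904 arterial and 22105 capillary cells. The venous markers were Slc38a5, Nr2f2, Vwf, Ackr1, Icam1, Vcam1 and Lcn2. A cell could thus be taken as venous by the adhesion genes Icam1 and Vcam1 with Lcn2 alone, and the part of each marker was not tested. Venous cells held C4b at 15.3 ± 8.16 CPM and the other endothelial cells of the same mice at 1.56 ± 1.00 CPM, higher in venous cells in 11 of 11 mice (log2 difference 2.58 on the log2(CPM + 1) scale, adjusted p = 0.00659, exact permutation test). In venous cells the 6 CADASIL mice held 20.3, 13.1, 30.7, 7.42, 15.4 and 21.2 CPM and the 5 control mice 6.04, 15.7, 8.83, 24.1 and 5.37 CPM, and the groups overlapped. Arterial cells held 0.668 ± 0.664 CPM and capillary cells 0.817 ± 0.329 CPM, lower than the rest in 11 of 11 mice (adjusted p = 0.00659 for each, exact permutation test). C4b was seen in 338 of 3782 venous cells, 9.58 ± 6.40% of cells over the mice, and in 0.436% of arterial and 0.432% of capillary cells.

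Serping1, though low in endothelium, was also read unevenly. Arterial cells held 2.79 ± 1.79 CPM against 1.06 ± 1.08 CPM in the other endothelial cells, higher in 10 of 11 mice (adjusted p = 0.0211, exact permutation test). Capillary cells held 0.514 ± 0.397 CPM against 1.95 ± 1.33 CPM, lower in 11 of 11 mice (adjusted p = 0.00659, exact permutation test). These levels rested on 99 UMIs in 4904 arterial cells and 58 UMIs in 22105 capillary cells. Smooth muscle cells held Serping1 at 128 ± 18.3 CPM, and the part of their RNA in the endothelial values was not tested. Of the 27 comparisons of a gene in a zone, 5 passed, and these 5 were all C4b or Serping1. Genes outside the list were not compared by zone, so the share over all genes is not known. With all mice, the genes read in microglia were not called in any zone, with C1qa at 36.8 CPM in arterial, 41.8 CPM in capillary and 33.6 CPM in venous cells. Without R182C-TgN3 4, 8 passed, with C1qa (log2 difference -0.78, adjusted p = 0.0264), C1qb (-0.74, adjusted p = 0.0301) and C1qc (-0.66, adjusted p = 0.0330) lower in venous cells (exact permutation tests). Itgam passed as lower in arterial cells without R182C-TgN3 6 (adjusted p = 0.0352) or without WT-TgN3 5 (adjusted p = 0.0439, exact permutation tests). Within either genotype alone 0 of the 27 passed, which the design nearly fixes: an exact test of 5 control mice cannot reach 0.05, and in the 6 CADASIL mice the smallest possible p, 0.0312, became 0.121 after adjustment. Venous C4b was at a log2 difference of 2.65 in CADASIL mice alone and 2.50 in control mice alone.

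**Figure D5:**
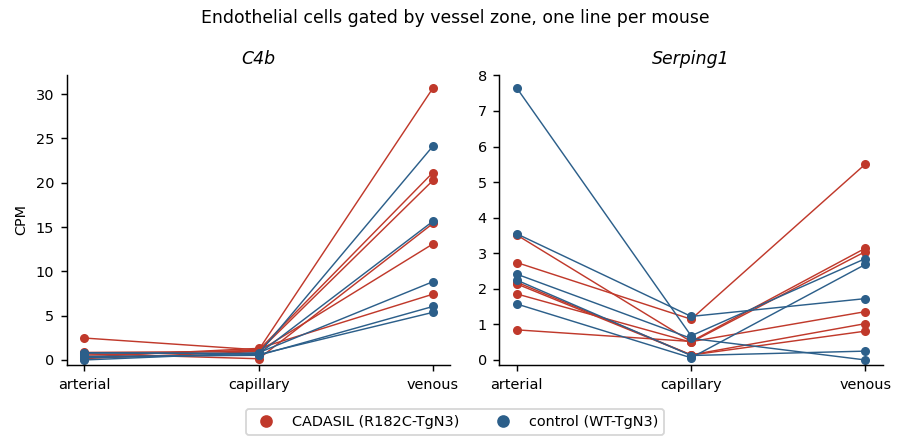
Level of C4b and Serping1 in arterial, capillary and venous endothelial cells, in CPM, with a point and a line for each mouse, coloured by genotype. Venous cells hold C4b at 5.37 to 30.7 CPM, above the arterial and capillary cells of the same mice.

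Within each mouse, microglia with at least 3 markers of a state were set against its remaining microglia, for lists that hold none of the 9 genes. The chemokine list (Ccl3, Ccl4, Il1b, Tnf and others) took in 10830 of 14281 microglia and the disease-associated list (Apoe, Cst7, Lpl and others) 699, and such a rule takes more deeply read cells more readily. Of the comparisons of the 9 genes in chemokine, disease-associated and interferon cells, 9 passed an adjusted p of 0.05. Only the 9 genes were compared by state, so the share of all genes that differ is not known. In chemokine cells C3ar1 was at 483 against 358 CPM and C5ar1 at 327 against 227 CPM, each higher in 11 of 11 mice (adjusted p = 0.00879, exact permutation tests). C1qc was at 3141 against 2798 CPM, higher in 9 of 11 mice (adjusted p = 0.0226, exact permutation test). Itgam was lower in chemokine cells, at 432 against 483 CPM, in 10 of 11 mice (adjusted p = 0.0132, exact permutation test).

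In disease-associated cells Itgam was lower in 11 of 11 mice, at 341 against 447 CPM (adjusted p = 0.00879, exact permutation test). C1qa was at 4756 against 4366 CPM and C1qb at 4157 against 3638 CPM, each higher in 10 of 11 mice (adjusted p = 0.0264 and 0.0158, exact permutation tests). C3 was at 7.37 ± 6.49 against 0.599 ± 0.624 CPM, higher in 9 of 11 mice (adjusted p = 0.0264, exact permutation test). These cells, 699 of 14281 microglia, held 38 of the 69 C3 UMIs of microglia, in 24 cells of 9 mice. The median depth of disease-associated cells was 4343 to 9209 UMIs over the mice, against 3573 to 7984 UMIs in the others. Serping1 passed too, with 0 UMIs in the 699 cells against 14 UMIs in the others, a level too low to read.

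With every cell thinned to 2000 UMIs, 5 state differences passed, all in chemokine cells (C1qa, C1qb, C1qc, C3ar1 and C5ar1), and C3 in disease-associated cells rested on 2 UMIs (adjusted p = 0.906, exact permutation test). The thinned disease-associated cells were only 183 in 8 mice, and their log2 differences were -0.38 for Itgam (main -0.39, adjusted p = 0.123, exact permutation test) and 0.31 for C1qb (main 0.19, adjusted p = 0.0703, exact permutation test). Without WT-TgN3 2 and R182C-TgN3 5, 3 passed, C3ar1 and C5ar1 in chemokine cells and Itgam in disease-associated cells, while C1qc and Itgam in chemokine cells and C1qa, C1qb and C3 in disease-associated cells did not (adjusted p = 0.0791, 0.0527, 0.105, 0.0527 and 0.0527, exact permutation tests). Interferon cells with at least 3 markers could be compared in 7 mice and 0 of the 9 genes passed (lowest adjusted p = 0.0703, exact permutation tests, and 1 gene, Serping1 at 0 UMIs, at an unadjusted p under 0.05). With at least 2 markers they could be compared in 11 mice, and C1qa (4181 against 4400 CPM, adjusted p = 0.0316), Itgam (391.5 against 442 CPM, adjusted p = 0.0487) and Serping1 (0 UMIs, adjusted p = 0.0132) passed as lower in interferon cells (exact permutation tests). Proliferating cells were too few, 27 in all.

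Of 47 other complement genes, 19 reached 20 CPM in a cell type. The type named for each is the one with the highest mean, and the order of the types was not tested for these genes. Fibroblasts held the highest level of Clu at 117 ± 62.7 CPM, the protease C1ra at 58.2 ± 15.1 CPM, C2 at 54.3 ± 16.7 CPM and Colec11 at 28.5 ± 17.8 CPM (n = 6). Smooth muscle cells led in C1s1, the other C1 protease, at 57.4 ± 12.1 CPM with pericytes next at 53.9 ± 23.8 CPM, and in C1qbp at 53.7 ± 9.74 CPM with fibroblasts next at 51.4 ± 29.5 CPM. Pericytes led in Vtn, which encodes vitronectin, at 8101 ± 1381 CPM, in Cd46 at 37.3 ± 17.5 CPM and in Csmd1, whose mean of 134 ± 332 CPM rested on 1 mouse at 1127 CPM. Endothelial cells led in Cd93 at 315 ± 26.4 CPM, the membrane regulator Cd59a at 153 ± 14.1 CPM and the C3 regulator Cr1l at 138 ± 15.0 CPM. Macrophages led in Cfp, which encodes properdin, at 64.1 ± 52.9 CPM, Vsig4, a C3 fragment receptor, at 49.3 ± 29.5 CPM, Fcna at 45.5 ± 27.8 CPM and C5ar2 at 33.7 ± 34.2 CPM (n = 8), close to the 32.9 ± 5.25 CPM of microglia. Microglia led in Calr at 398 ± 47.8 CPM and in Itgb2, the partner chain of Itgam, at 149 ± 9.69 CPM (n = 11). Fibroblasts were next in Calr at 361 ± 63.4 CPM. Endothelial cells were next in Clu at 93.9 ± 40.9 CPM and in Cd46 at 30.7 ± 5.29 CPM. The lectins Mbl1 and Mbl2 and Fcnb were at 0 UMIs in these types.

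Between genotypes 0 of the other complement genes were called in microglia (15 tested), macrophages (2), endothelial cells (24), smooth muscle cells or pericytes (edgeR). The DESeq2 fits called 0 as well. With no filter on low counts, Csmd1 was called in pericytes (log2 fold change -2.90, SE 0.52, adjusted p = 0.00179 in edgeR), where WT-TgN3 2 held 1127 CPM and the other mice 0 to 97.3 CPM. Among the lowest unadjusted p were 0.0281 for Colec11 in endothelial cells (log2 fold change 1.08, SE 0.44), 0.0434 for Calr in pericytes (0.38, SE 0.17) and 0.0418 for Cd59a in smooth muscle cells (0.36, SE 0.16). Between microglia and macrophages 17 were tested and 10 were called, where 29.4% of the 10756 genes tested were called. Itgb2, Calr and Masp1 were higher in microglia and Cd55, Fcna, Cd93, Vtn, C2, Cfp and Vsig4 lower. Calr differed by a log2 fold change of 0.45 (SE 0.17, adjusted p = 0.0323 in edgeR), near the 0.43 of C1qb, whose call rested on the scaling. Masp1 differed by 7.75 with a wide SE of 2.72, at only 7.80 ± 1.87 CPM in microglia. Itgb2 was higher by a log2 fold change of 1.38 (SE 0.25, adjusted p = 2.906e-07 in edgeR), the same direction as Itgam, with which it forms CR3.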

How the data were processed

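Single-cell libraries of 11 mice were analysed. The authors aligned reads with Cell Ranger 7.0.0 to the mm10 transcriptome with human NOTCH3 added, and deposited raw UMI counts per gene and called barcode. Barcodes were gated by marker lists holding no complement gene: a type needed at least 3 detected markers and 10% of its reference score, and barcodes whose second type exceeded 50% of the best were set aside as mixed in place of a doublet caller. Counts were summed per mouse and type. The fits left out genes of ribosomal proteins and mitochondria and those named Gm or Rik, and used TMM and the edgeR 4.0.16 quasi-likelihood test (R 4.3.3) with Benjamini-Hochberg adjustment over all genes tested. A gene was called at an adjusted p under 0.05. DESeq2 1.42.0, other gates and filters, covariates and leaving out each mouse were alternatives. Levels within mice were compared by 2-sided exact sign-flip permutation tests of log2(CPM + 1), adjusted over all pairs or over all genes and states. Precision is limited by 6 and 5 mice, and intervals cover counting error only. The fits were tested on simulated data.

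The labels number replicates within genotype and age, and mice of the same age and number gave 5 pairs that shared a batch. In microglia the deviations of paired mice from the mean of their genotype correlated across genes, with r from 0.125 to 0.420 in every pair. Paired mice also shared age and batch, so a pairing by number cannot be told apart from these. The pairs served only as a block in an alternative fit. The genes, lists, markers and tests were chosen with earlier results of these data known. Genes named were the 9, listed complement genes of at least 20 CPM, the 2 genes most like each of the 9, and leading genes of each type. Of these, 2 genes are not reported here. Positions are from GENCODE vM21 and promoters from RefSeq GRCm38.p6.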

Additional observations from a re-analysis of the deposited data

Results flagged for a closer look

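Among 37 groups of 4 to 6 mice checked for a mouse far from the others of its genotype, 4 had one. The check marks about 1 in 20 groups by chance. That rate does not apply to the share of microglia low in C1q, whose limit was set after the values were seen. Flags on that share are a description. C3ar1 in macrophages was at 1004 CPM in WT-TgN3 5, against 374.0 to 390.9 CPM in the other control mice. C5ar1 in macrophages was at 1121 CPM in R182C-TgN3 3, against 496.3 to 569.5 CPM in the other CADASIL mice. The share of microglia low in C1q was 32.81% in WT-TgN3 2, against 0.531% to 3.985% in the other control mice, and 9.717% in R182C-TgN3 5, against 0.6082% to 1.937% in the other CADASIL mice.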

How the results depend on the processing

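Of the recomputed counts 480 stayed within 1.5 times the main count and 51 did not, and of the recomputed single values 993 kept direction and side of the threshold or moved by less than the spread, 12 moved, 7 reversed, 3 gained a call and 35 lost one. Reversed values were C3ar1 in microglia against macrophages with DESeq2 and with its size factors in edgeR (log2 fold change -0.12 in both, main 0.10), the genotype difference of C4b in macrophages under the stricter gate (-0.11), the looser gate (-0.0041), without R182C-TgN3 1 (-0.14) and without WT-TgN3 5 (-0.015, main 0.09, from -0.14 to 0.27 over the mice left out), and the genotype difference in the share of microglia with Itgam without thinning (1.77 percentage points, main -1.60). None of these was called. The cause was not tested. Without a filter on low counts, macrophages gave 15 called genes between genotypes (main 0) and pericytes 13 (main 1), with 1 of the 9 complement genes, C1qc. DESeq2 gave 232, 625 and 47 genes for age in microglia, endothelial cells and smooth muscle cells (main 70, 100 and 23), 12 for sex in smooth muscle cells (main 7), and 1, 1 and 2 for the interaction (main 0 in each), with 0 of the 9 genes called. Leaving out each mouse gave 5 to 345, 0 to 305 and 7 to 39 genes for age in the same types, 6 to 10 for sex in smooth muscle cells, and 0 to 2 for the interaction in endothelial cells and in smooth muscle cells. It also gave 4 to 6 of the 9 genes and 2829 to 3063 of all genes between microglia and macrophages, 7 to 10 state differences (main 9) and 5 to 8 zone differences (main 5, 8 without R182C-TgN3 4). Thinning gave 5 state differences, leaving out WT-TgN3 2 and R182C-TgN3 5 gave 3, and each genotype alone gave 0 zone differences. The settings that removed shared barcodes, put size factors of DESeq2 into edgeR for microglia and macrophages, left out those 2 mice together, or concerned zones were chosen after seeing the data.

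With the replicate block, 0 of the 9 genes were called between genotypes in any type, and C1qa in microglia was at a log2 fold change of 0.17 (adjusted p = 1.00 in edgeR, main 0.19). In the other types some pairs correlated below 0.1, and the same pairs were used there. The block changed no call of the 9 genes. In microglia C3, C4b and Serping1 held 69, 79 and 14 UMIs over all mice. In the genotype fit there, these genes passed the filter only in other settings.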
